A study of Homo sapiens with 6 samples.

Results

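The genes described here build the nuclear pore or carry cargo through it. They were taken by symbol: NUP, IPO or XPO followed by a digit, KPNA, KPNB, and RANBP2, TPR, SEH1L, RAE1, AAAS, NDC1, CSE1L, TNPO1, RAN and RCC1. Of 79 such symbols in the RefSeq gene table, 57 had a probe set annotated with that gene alone, among 19775 genes represented in the same way. Of the 57, 52 are protein-coding and 5 are not (IPO5P1, IPO9-AS1, NUP133-DT, NUP50-DT and NUP210P1). The other 22 symbols had none; KPNA7 is protein-coding and the rest are pseudogenes or non-coding transcripts.

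The cells were WM-266.4, also labelled WM-266, a line from a metastatic human melanoma. The siPIR cells received 200 pmol of a pool of 4 siRNA duplexes against PIR, which encodes the iron-binding nuclear protein pirin. The siCTR cells received 200 pmol of a pool of 4 non-targeting duplexes, and the NO cells went through the procedure with Oligofectamine alone. All were collected 72 h after transfection in serum-free medium. RNA of 3 extractions was mixed for each group, and 1 labelled target from each mixture was hybridised to 2 Affymetrix HG-U133 Plus 2 arrays, so n is 1 RNA pool per group. Ranges given after a difference cover the 4 pairs of arrays and show hybridisation error only. No p-value is given, because no condition was repeated.

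The nuclear pore is a ring-shaped channel through the nuclear envelope, made of many copies of proteins called nucleoporins. An outer ring of Y-shaped complexes and an inner ring form its scaffold, and nucleoporins with phenylalanine-glycine repeats fill the channel. Importins and exportins carry proteins and RNA through it, in a direction set by the GTPase RAN, which RCC1 loads with GTP on chromatin. The pore is taken apart and rebuilt in mitosis, and importins and RAN also act in spindle assembly.

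A gene was called where 2 pools differed by at least 1 on the log2 scale (2-fold) and their arrays did not overlap. Differences are on the log2(signal + 5.4) scale. A gene counted as measured when at least 1 pool mean exceeded 70.2 signal units, the median of all values. Of the 57 genes, 51 were measured, 48 of them protein-coding, and 47 were bright: at least 1 pool mean exceeded 458.4, the 75th percentile of all values. In 49 of the 51 all 3 pools exceeded the limit. NUP210P1 passed it through the NO pool alone and IPO5P1 through the siCTR and NO pools, so a low siPIR value in these 2 follows partly from how they passed. The same holds at the bright limit for NUP58 and NUP188, whose siPIR pool means were 341.6 and 446.15. Both passed 458.4 through the siCTR and NO pools, which bears on each count of bright members below the controls. The 6 genes not measured were IPO11, IPO9-AS1, NUP133-DT, NUP210, NUP210L and NUP62CL. Their array signals ran from 2.1 to 105.9.

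The data showed a shift of modest size, mostly downward, in the siPIR pool. Both siPIR arrays lay below both siCTR arrays in 35 of 51 genes and above them in 7. Over all 13053 measured genes the shares were 29.4% below and 36.6% above. Against NO, 34 genes lay below and 7 above, with 32.6% and 37.7% of all measured genes. Below both controls at once were 30 genes (23.1% of all measured genes), and above both were RANBP2, KPNA1, KPNA6, IPO13 and XPO5 (5 of 51; 28.4% of all). Among the 47 bright members, 33 lay below siCTR and 7 above, against 35.6% and 39.8% of all 8271 bright genes, and 32 lay below NO and 7 above, against 35.6% and 43.6%. Below both controls were 28 bright members, against 29% of bright genes. The median log2 difference was -0.36 from siCTR and -0.35 from NO. The median over all measured genes was 0.05 and 0.03. With the 6 unmeasured genes added, 38 of 57 lay below siCTR, against 24.8% of all 19775 genes.

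Few of these differences reached 2-fold. KPNA2 and the pseudogene NUP210P1 were called lower than siCTR (2 of 51; 4.21% of all measured genes were lower by this rule and 3.66% higher). NUP58 and NUP210P1 were called lower than NO (2 of 51; 5.4% of all were lower and 3.6% higher). NUP210P1 alone was called against both controls (1 of 51; 3.2% of all were lower and 1.47% higher), and no member was called higher in any comparison. Among bright genes 1 of 47 was called against siCTR (4% of all bright genes), 1 against NO (4.27%) and 0 against both (3.4%). The 1 against NO was NUP58, which passed the bright limit only through the control pools. Without the filter, 4 of 57 were called lower than siCTR (5.92% of all genes). With the brightest probe set, the share of 2-fold calls among measured genes was therefore no larger in the pore and transport genes than overall. This depended on the probe set. Without _x_at and _s_at probe sets, 5 of 39 genes were called lower than NO, against 6.04% of all genes measured in that way, and 3 of 39 lower than both controls, against 3.43%.

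At 1.5-fold with arrays apart, 13 of 51 genes were lower in siPIR than in siCTR, against 9.99% of all measured genes, and 11 were lower than in NO, against 12.7%. IPO13 was higher than each, where 10.6% and 11.8% of all genes were higher. By this smaller size, 9 genes were lower than both controls, against 7.5% of all measured genes. They were KPNA2, NUP35, RCC1, CSE1L, NUP54, IPO5, NUP107, IPO5P1 and NUP210P1. IPO5P1 and NUP210P1 passed the limit of measured genes only through control pools, so their low siPIR values are partly built in. Of the 48 protein-coding members, 11 were lower than siCTR, 9 lower than NO and 7 lower than both. Among bright members the counts were 11 below siCTR (10% of all bright genes), 9 below NO (11.3%) and 7 below both (8.27%). IPO13 alone was higher than both (1 of 51; 6.27% of all). The comparisons with siCTR and NO share the siPIR arrays, so they are not separate evidence.

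**Figure D1:**
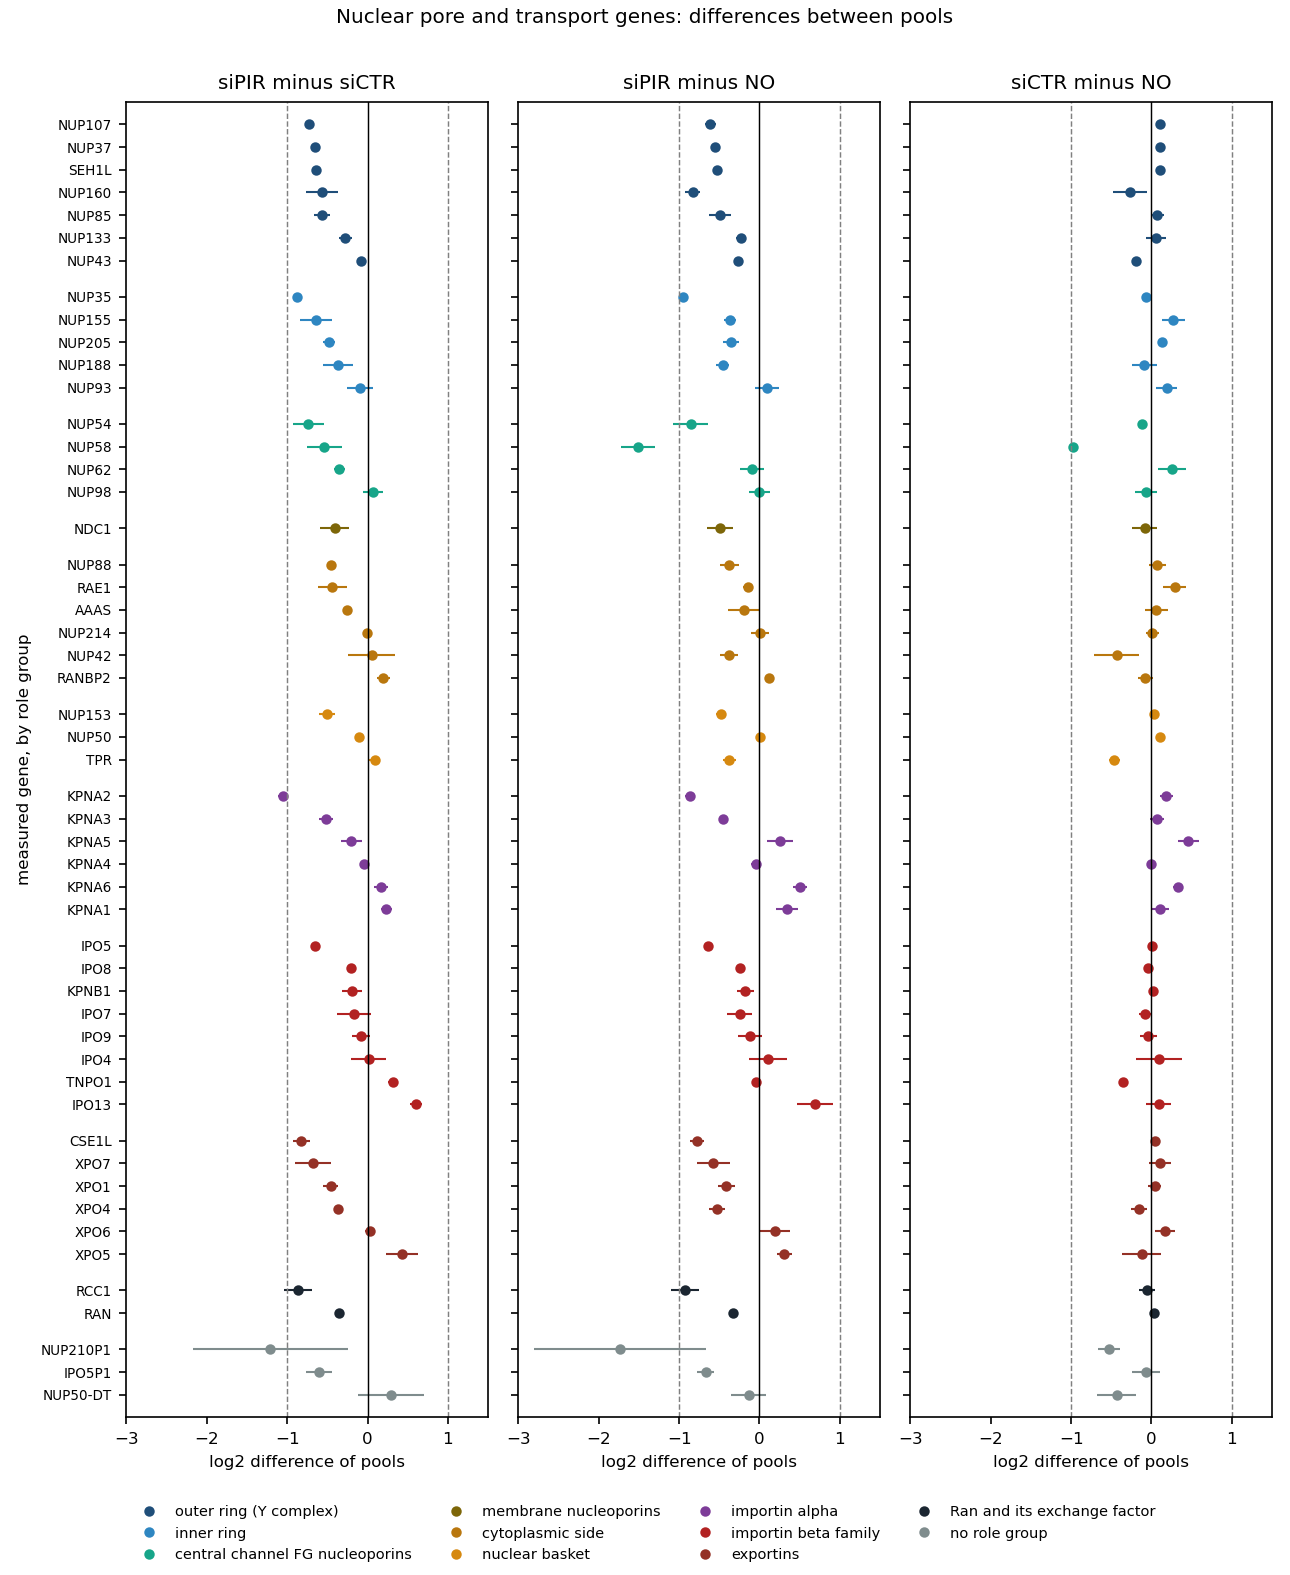
Log2 difference between pools (x axis) for each of the 51 measured genes (y axis), grouped and coloured by role, with lines over the 4 array pairs and dashed lines at 2-fold. Most points lie left of 0 for siPIR minus siCTR (median -0.36) and siPIR minus NO (median -0.35), and around 0 for siCTR minus NO (median 0.03).

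Promoter sequence is shown for the 4 protein-coding genes with the strongest smaller difference from the controls (NUP35, KPNA2, RCC1 and CSE1L) and for IPO13, which moved the other way. The first 4 were picked for their low siPIR values, so being low together follows from the choice. The letters allow them to be set beside those of cell cycle genes. Whether such sites have a part in the differences was not tested. Each run is the 250 bases before the RefSeq start site, 5′ to 3′ on the strand of the gene, build GRCh38.p14. Capitals mark matches on either strand to TTTGAA (the core of the cell cycle genes homology region, bound by the MuvB complex), to TTCCCGC or TTGGCGC (E2F sites), and to CCAAT. Read on the other strand, the CCAAT letters can overlap those of TTGGCGC. The runs lie at chr2:183124193-183124442 (NUP35, + strand), chr17:68035485-68035734 (KPNA2, + strand), chr1:28505793-28506042 (RCC1, + strand), chr20:49046062-49046311 (CSE1L, + strand) and chr1:43946700-43946949 (IPO13, + strand).
NUP35: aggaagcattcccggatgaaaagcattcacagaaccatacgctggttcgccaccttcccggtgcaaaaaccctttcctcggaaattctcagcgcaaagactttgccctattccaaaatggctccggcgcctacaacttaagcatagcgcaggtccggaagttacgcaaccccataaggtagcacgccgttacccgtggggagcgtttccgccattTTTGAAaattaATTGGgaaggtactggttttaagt
KPNA2: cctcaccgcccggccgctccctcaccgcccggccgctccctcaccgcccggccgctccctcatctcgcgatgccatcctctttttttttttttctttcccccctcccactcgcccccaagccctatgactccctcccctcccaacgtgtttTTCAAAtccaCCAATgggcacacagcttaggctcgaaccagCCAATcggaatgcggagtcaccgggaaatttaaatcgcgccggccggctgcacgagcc
RCC1: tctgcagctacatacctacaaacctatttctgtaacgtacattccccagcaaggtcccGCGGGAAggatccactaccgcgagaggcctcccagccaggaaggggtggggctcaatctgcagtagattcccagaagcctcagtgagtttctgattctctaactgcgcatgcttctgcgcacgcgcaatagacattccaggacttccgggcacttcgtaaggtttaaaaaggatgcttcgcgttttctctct
CSE1L: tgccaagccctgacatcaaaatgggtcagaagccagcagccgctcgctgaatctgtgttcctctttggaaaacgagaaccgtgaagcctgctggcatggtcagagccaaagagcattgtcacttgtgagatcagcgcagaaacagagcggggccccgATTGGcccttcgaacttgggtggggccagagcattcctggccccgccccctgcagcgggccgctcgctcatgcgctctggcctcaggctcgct
IPO13: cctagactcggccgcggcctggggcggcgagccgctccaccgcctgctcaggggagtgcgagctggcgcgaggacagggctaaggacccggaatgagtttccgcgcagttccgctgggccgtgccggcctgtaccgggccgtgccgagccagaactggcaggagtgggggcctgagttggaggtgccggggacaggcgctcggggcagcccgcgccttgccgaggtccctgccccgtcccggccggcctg

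In these runs NUP35 held 1 TTTGAA, beginning 35 bases before the start site, and 1 CCAAT. KPNA2 held 1 TTTGAA and 2 CCAAT. RCC1 held 1 E2F match, 192 bases before the start, and CSE1L held 1 CCAAT. IPO13 held none of the 3. These are matches of letters and do not show that a factor binds.

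RefSeq promoters of 300 bases (250 before and 50 after the start) were listed for 43 of the 48 measured protein-coding members. TTTGAA was found in 10 of the 43 (23.3%), against 12.1% of the 15842 promoters of protein-coding genes and 9.95% of those of measured ones. An E2F match was found in 10 (23.3%), against 12.3% and 14.6%, and CCAAT in 20 (46.5%), against 36.4% and 36.6%. Among the 7 protein-coding genes 1.5-fold lower than both controls, 3 held TTTGAA (CSE1L, KPNA2 and NUP35), 3 held an E2F match (NUP107, NUP54 and RCC1) and 5 held CCAAT. The TTTGAA of CSE1L lies in the 50 bases after the start. Of the other 36 members, 7 held TTTGAA, 7 an E2F match and 15 CCAAT. In 26 promoters of a list of replication and mitosis genes, 9 held TTTGAA, 11 an E2F match and 21 CCAAT. IPO5 held CCAAT alone among the 3. Of the members above siCTR, IPO13, RANBP2, KPNA1 and XPO5 held none of the 3. KPNA6, TNPO1 and TPR, also above siCTR, held CCAAT, and TNPO1 an E2F match as well. Among members below siCTR, SEH1L, NUP133, NUP188, NUP62, RAE1, NUP50, AAAS and IPO8 held none either. Whether the matches go with the direction of a difference was not tested.

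The outer ring members taken by symbol were lower on the probe sets that represent them. All 7 (NUP107, NUP85, NUP133, NUP160, NUP37, NUP43 and SEH1L) had both siPIR arrays below both arrays of each control. The same held for 23.1% of all measured genes. NUP98, whose gene also encodes the scaffold protein NUP96, is counted with the central channel and did not separate. The median log2 difference of the 7 was -0.57 from siCTR and -0.53 from NO. NUP107, a stem subunit of the Y complex, had signals of 1207 and 1145 on the siPIR arrays, against 1915 and 1972 (siCTR) and 1756 and 1841 (NO). The difference was -0.72 from siCTR (-0.78 to -0.66) and -0.61 from NO (-0.68 to -0.54), the largest of the ring against siCTR. SEH1L, which also belongs to the GATOR2 complex of amino acid sensing, differed by -0.65 and -0.53, and NUP37 by -0.66 and -0.55. NUP160 differed by -0.57 and -0.83, and NUP85 by -0.57 and -0.49. NUP133 was less affected, at -0.28 and -0.23.

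NUP43 was the least changed of the ring against siCTR. Its signals were 2438 and 2409 in siPIR, against 2543 and 2573 in siCTR and 2842 and 2991 in NO. The arrays did not overlap, but the difference was small, -0.08 from siCTR (-0.10 to -0.06) and -0.27 from NO (-0.31 to -0.22). A second, dimmer probe set of NUP43 gave -0.48 and -0.57. For NUP160 and NUP133 the other probe sets did not bear out the fall from siCTR: they gave 0.11 and 0.20 for NUP160 and 0.04 for NUP133.

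The inner ring, which lines the channel wall, had 4 of 5 members below each control. Of all measured genes, 29.4% lay below siCTR and 32.6% below NO. The median of the inner ring was -0.48 from siCTR and -0.37 from NO. NUP35, a membrane-contacting subunit, was strongest. It had 1955 and 2022 in siPIR, against 3600 and 3711 in siCTR and 3809 and 3864 in NO. The arrays were close within each pool and wide apart between siPIR and the controls, at -0.88 from siCTR (-0.92 to -0.83) and -0.95 from NO (-0.98 to -0.91), so NUP35 fell just short of 2-fold. NUP155 differed by -0.64 and -0.37, the large scaffold proteins NUP205 by -0.48 and -0.35 and NUP188 by -0.37 and -0.46.

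NUP93, which joins the inner ring to the channel, overlapped the controls. Its signals were 1371 and 1557 in siPIR, against 1481 and 1642 in siCTR and 1425 and 1311 in NO. The difference was -0.09 (-0.26 to 0.07) from siCTR and 0.10 (-0.06 to 0.25) from NO.

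In the central channel, NUP62, NUP54 and NUP58 form 1 complex with repeats that hold the permeability barrier. All 3 were below siCTR, against 29.4% of all measured genes, and NUP54 and NUP58 were also below NO, against 32.6%. NUP54 had 1656 and 2160 in siPIR, against 3166 and 3143 in siCTR and 3364 and 3493 in NO. The 2 siPIR arrays were uneven but both low, and the difference was -0.74 (-0.93 to -0.54) from siCTR and -0.86 (-1.07 to -0.64) from NO. NUP62 differed by -0.35 from siCTR and by -0.10 from NO, where its arrays overlapped.

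NUP58 separated all 3 pools. It had 291 and 392 in siPIR, against 495 and 492 in siCTR and 972 and 971 in NO. The siPIR pool was the lowest and the NO pool the highest, with -0.54 from siCTR (-0.75 to -0.32) and -1.51 from NO (-1.72 to -1.30). The siCTR pool was itself lower than NO by -0.97, 1.96-fold, so most of the difference between siPIR and NO was also present between the 2 controls. A second probe set showed the same order, with 228 and 232 in siPIR, 431 and 428 in siCTR, and 768 and 811 in NO. The other 2 probe sets of NUP58 differed from siCTR by -0.25 and -0.33 and from NO by -0.20 and -0.55, and their array ranges between siCTR and NO included 0. The fall of NUP58 against NO therefore depended on which probe set was read.

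NUP98, a repeat nucleoporin whose gene also encodes the scaffold protein NUP96, did not separate. Its signals were 722 and 783 in siPIR, against 748 and 686 in siCTR and 715 and 791 in NO. The difference was 0.07 (-0.05 to 0.19) from siCTR and -0.0010 from NO (-0.13 to 0.13), and its probe sets disagreed in sign.

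Of the membrane nucleoporins, which anchor the pore in the envelope, NDC1 was measured and NUP210 was not. NDC1 had 1711 and 1949 in siPIR, against 2279 and 2573 in siCTR and 2446 and 2693 in NO. Both siPIR arrays were below all control arrays, with -0.41 (-0.59 to -0.23) from siCTR and -0.49 (-0.65 to -0.33) from NO.

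**Figure D2:**
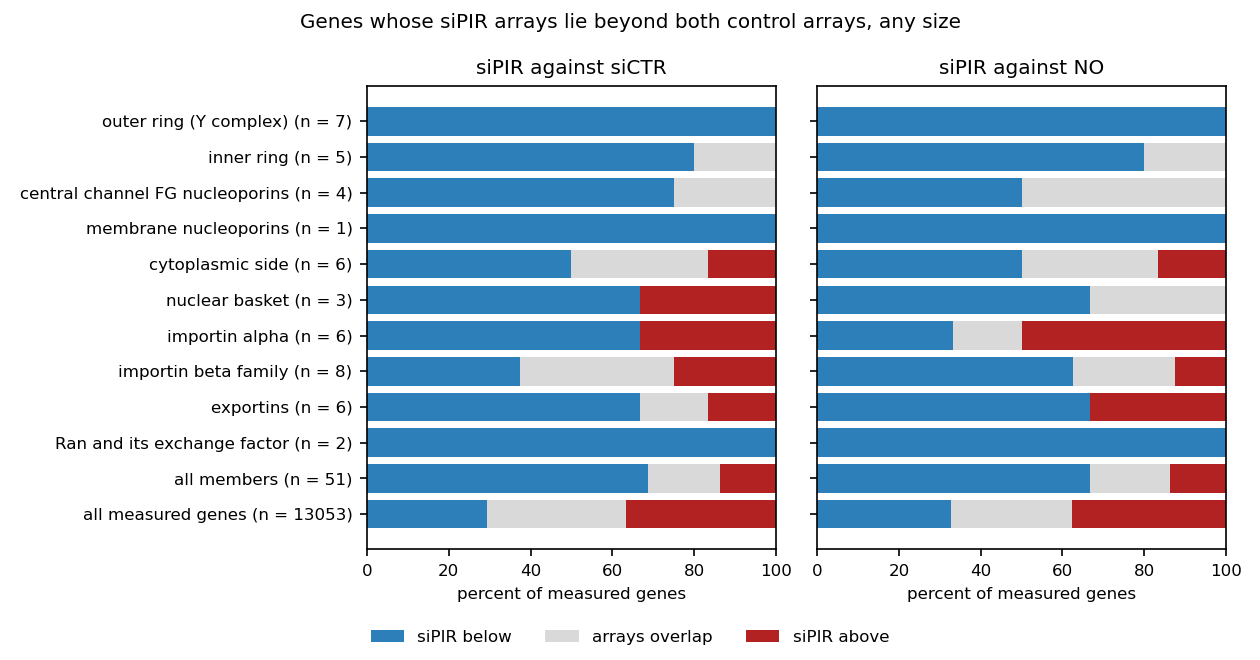
Share of measured genes in each role group (x axis, percent; n beside each name) whose 2 siPIR arrays lay below both arrays of the control pool (blue), overlapped them (grey) or lay above both (red), at any size of difference. The 7 outer ring genes of the symbol rule, which leaves out SEC13, are all below siCTR, as are 35 of 51 members and 29.4% of all measured genes.

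The cytoplasmic face and the nuclear basket were mixed. Of 6 genes on the cytoplasmic side, 3 were below siCTR and 1 was above, against 29.4% and 36.6% of all measured genes. The median difference of the 6 was -0.13. NUP88, partner of NUP214, had 2404 and 2329 in siPIR, against 3261 and 3213 in siCTR and 2874 and 3286 in NO. All siPIR arrays were lower, at -0.45 (-0.48 to -0.42) from siCTR and -0.38 (-0.50 to -0.26) from NO. NUP214 itself overlapped in all pools, with 381 and 404 in siPIR, 398 and 393 in siCTR, and 373 and 412 in NO. Its difference was -0.01 (-0.06 to 0.04) from siCTR, and 0.0022 (-0.11 to 0.11) from NO. A dim probe set of NUP214 differed from NO by -1.07.

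RAE1, an mRNA export factor that also acts at the spindle, differed by -0.44 from siCTR and -0.15 from NO. AAAS, which encodes aladin, differed by -0.25 from siCTR and overlapped NO. NUP42 overlapped siCTR (0.05) and was lower than NO (-0.38). RANBP2, the large filament protein that holds sumoylated RANGAP1 at the pore, was the exception, above both controls by 0.20 and 0.12. All 4 of its measured probe sets were higher than siCTR, by 0.0025 to 0.53. RANBP2 is uncertain, since the RGPD genes are near copies of it, and 1 further probe set shared with them was left out.

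In the basket, NUP153 had 1680 and 1820 in siPIR, against 2420 and 2559 in siCTR and 2429 and 2458 in NO. NUP153 organises the basket and was below both controls, by -0.51 (-0.61 to -0.41) and -0.48 (-0.55 to -0.42), and by -0.13 and -0.25 on its other measured probe set. NUP50, a cofactor that helps release importin cargo, differed by -0.10 from siCTR and 0.0078 from NO, while its 6 measured probe sets ranged from -0.43 to 0.70 against siCTR.

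TPR, the coiled-coil filament of the basket, stood apart between the controls instead. It had 1726 and 1638 in siPIR, against 1611 and 1555 in siCTR and 2117 and 2246 in NO. The siPIR and siCTR pools were both low beside NO, so the difference was 0.09 (0.02 to 0.15) from siCTR and -0.37 (-0.45 to -0.29) from NO. The difference of siCTR from NO was -0.46 (-0.53 to -0.39). Its 5 probe sets ranged from -0.59 to 0.52 against siCTR and were all lower than NO, by -0.90 to -0.17.

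The importin alpha proteins bind classical nuclear localisation signals and hand their cargo to importin beta. They did not move together. KPNA2, the alpha form abundant in dividing cells, had 6106 and 5941 in siPIR, against 12164 and 12900 in siCTR and 11303 and 10736 in NO. The siPIR signals were far below all 4 control signals, by -1.06 from siCTR (-1.12 to -0.99), a 2.08-fold lower level, and -0.87 from NO (-0.93 to -0.81), 1.83-fold lower. The second probe set gave 4581 and 5540 in siPIR, against 10297 and 10471 in siCTR and 10564 and 11484 in NO. Its differences of -1.04 and -1.13 passed 2-fold against both. KPNA2 has processed pseudogenes, whose transcripts these probes could share.

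KPNA3 was lower by -0.52 and -0.45. KPNA4 had 2636 and 2743 in siPIR, against 2770 and 2781 in siCTR and 2708 and 2848 in NO. On the probe set that represents it, it was nearly level, at -0.05 (-0.08 to -0.01) from siCTR and -0.05 (-0.11 to 0.02) from NO. Of its 3 other measured probe sets, one gave -0.01 and -0.01, another -0.31 and -0.31, and the brightest of them -0.36 from siCTR and -0.82 from NO. KPNA1 and KPNA6 lay above both controls, KPNA1 by 0.23 and 0.35 and KPNA6 by 0.17 and 0.51. All 4 probe sets of KPNA6 were higher than siCTR (0.11 to 0.50), whereas those of KPNA1 differed in sign (-0.18 to 0.23). KPNA5 was below siCTR (-0.20) and above NO (0.25).

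**Figure D3:**
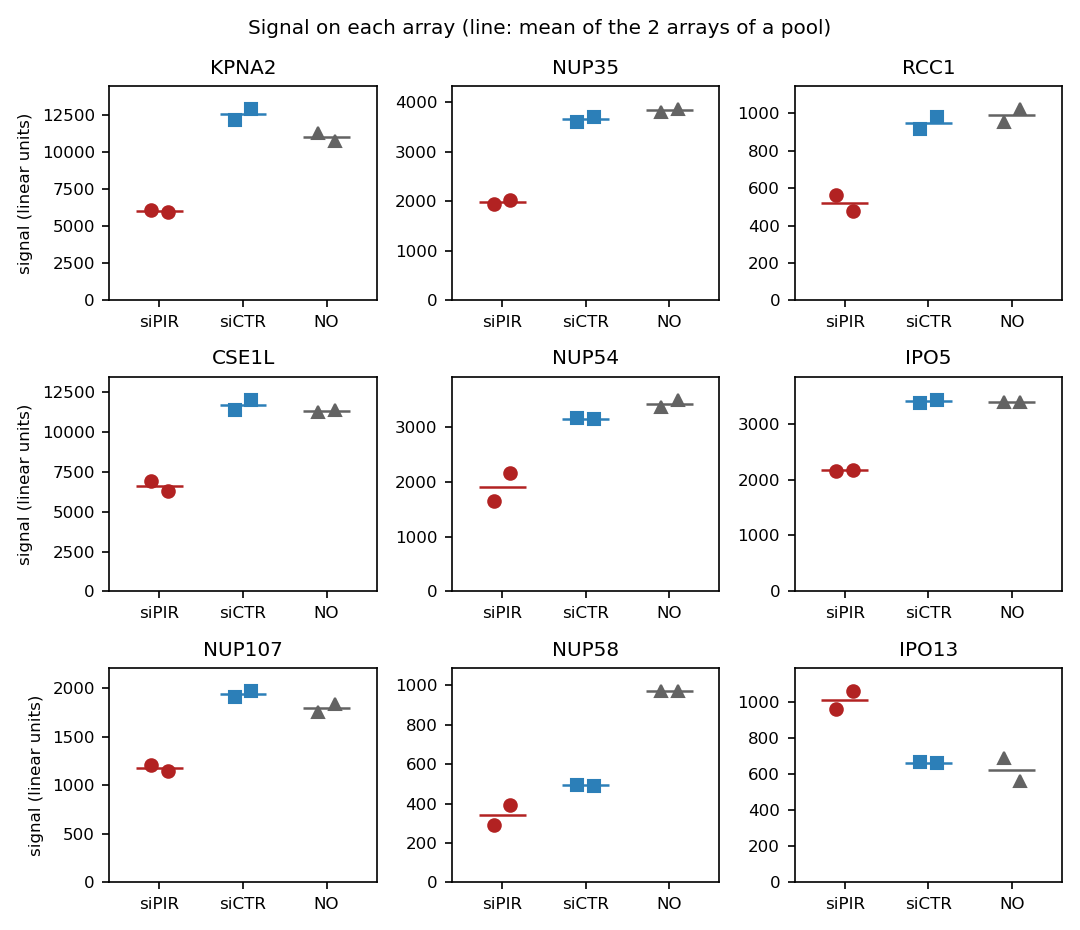
Signal (y axis, linear units from 0) on each array of the siPIR, siCTR and NO pools, with a line at the mean of the 2 arrays, for 9 genes. KPNA2, NUP35, RCC1, CSE1L, NUP54, IPO5 and NUP107 are low in siPIR beside both controls, which differ from each other by -0.12 (NUP54) to 0.19 (KPNA2), NUP58 steps up through the 3 pools, and IPO13 is high in siPIR.

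The importin beta family binds cargo and repeat nucleoporins directly. Of 8 measured members, 3 were below and 2 above siCTR, against 29.4% and 36.6% of all measured genes. IPO5, which imports ribosomal proteins and histones, had 2157 and 2167 in siPIR, against 3370 and 3423 in siCTR and 3378 and 3385 in NO. Its arrays were even within each pool and wide apart between siPIR and the controls, and the differences were -0.65 (-0.66 to -0.64) and -0.64 (-0.65 to -0.64). All 5 probe sets of IPO5 were lower than both controls, by -0.90 to -0.51 from siCTR and -0.78 to -0.36 from NO. KPNB1, importin beta itself, was lower by -0.19 (-0.31 to -0.07) and -0.18 (-0.28 to -0.07), but its 6 probe sets ranged from -1.01 to -0.09 against siCTR.

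IPO13, which carries cargo in both directions, had the largest rise of the 51. It had 961 and 1063 in siPIR, against 667 and 661 in siCTR and 693 and 561 in NO. Both siPIR arrays were above all 4 control arrays, at 0.60 (0.52 to 0.68), 1.52-fold, and 0.69 (0.47 to 0.92), 1.62-fold. It rests on 1 probe set. IPO13 is named because of its values, outside the rule for naming genes.

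IPO4 had 805 and 716 in siPIR, against 823 and 683 in siCTR and 782 and 633 in NO. The arrays overlapped in both comparisons, at 0.02 (-0.20 to 0.23) and 0.11 (-0.13 to 0.34). IPO8 was slightly below both controls (-0.20 and -0.24). On the probe sets that represent them, IPO7 was below NO (-0.25) and IPO9 within the array spread (-0.08 and -0.12). A dimmer probe set of IPO7 lay above siCTR by 0.25 and above NO by 0.37, while its other measured ones had negative differences. For IPO9, a dim probe set differed from NO by -0.71, and its other measured ones overlapped NO. TNPO1, the import receptor of hnRNP proteins, was 0.32 above siCTR and differed by -0.04 from NO, while siCTR was below NO by -0.36. All 7 measured probe sets of TNPO1 were higher than siCTR (0.08 to 0.41).

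Of the 6 exportins, 4 were below each control, against 29.4% (siCTR) and 32.6% (NO) of all measured genes. Above siCTR was 1, against 36.6%, and above NO were 2, against 37.7%. CSE1L, which returns importin alpha to the cytoplasm, had 6961 and 6290 in siPIR, against 11403 and 12015 in siCTR and 11278 and 11415 in NO. All siPIR arrays were low, at -0.82 (-0.93 to -0.71) from siCTR, 1.77-fold, and -0.78 (-0.86 to -0.70) from NO, 1.71-fold. A second bright probe set gave 2246 and 2268 in siPIR, against 4684 and 5030 in siCTR and 4710 and 4813 in NO. Another gave 1189 and 1205 in siPIR, against 2654 and 2947 in siCTR and 2818 and 2689 in NO. These 2 differed from siCTR by -1.10 and -1.22 and from NO by -1.08 and -1.20, so CSE1L passed 2-fold on both and not on its brightest probe set.

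XPO1, the main exportin of proteins with leucine-rich signals, was lower by -0.46 (-0.55 to -0.36) and -0.42 (-0.52 to -0.31), and its 3 probe sets ranged from -0.62 to -0.16 against siCTR and -1.08 to -0.42 against NO. XPO7 differed by -0.68 and -0.57, although another probe set gave -0.07 and -0.17, and XPO4 by -0.37 and -0.53. XPO5, the carrier of precursor microRNAs, was above both controls, by 0.43 (0.23 to 0.63) and 0.31 (0.21 to 0.41), with all 3 probe sets higher than siCTR (0.22 to 0.43). XPO6, the actin exportin, had 1421 and 1304 in siPIR, against 1339 and 1332 in siCTR and 1295 and 1090 in NO. Its arrays overlapped siCTR (0.03, -0.04 to 0.09) and were just above NO (0.20, 0.01 to 0.38). Its other probe set, with 1450 and 1453 in siPIR, against 1154 and 1150 in siCTR and 1139 and 1087 in NO, lay above both controls, by 0.33 and 0.38. Each is of the _x_at kind, whose probes can match further genes.

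RAN and RCC1 were both lower. RAN had 11827 and 11658 in siPIR, against 14795 and 15341 in siCTR and 14656 and 14939 in NO. The arrays were well apart but the difference was small, -0.36 (-0.40 to -0.32) from siCTR and -0.33 (-0.36 to -0.31) from NO, and -0.66 and -0.57 on the second probe set. RCC1 had 563 and 476 in siPIR, against 915 and 982 in siCTR and 954 and 1023 in NO. RCC1 was low on both siPIR arrays, by -0.87 (-1.04 to -0.70) and -0.92 (-1.09 to -0.75), and its second probe set gave -0.58 and -0.72.

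Among the non-coding members, NUP210P1, a transcribed pseudogene, had 8.4 and 46.1 in siPIR, against 55.6 and 57.0 in siCTR and 76.4 and 91.3 in NO. Its 2 siPIR arrays were far from each other, and the differences of -1.21 (-2.18 to -0.24) and -1.74 (-2.81 to -0.67) rest on 1 very low array. Without siPIR replicate 1 they were -0.26 and -0.79 and neither was called, which left no member called against both controls. IPO5P1, a pseudogene of IPO5, differed by -0.60 and -0.67 at signals of 52.8 to 94.4, and its probes may share letters with IPO5. NUP50-DT overlapped the controls in both comparisons.

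Several probe sets per gene allowed the choice of probe set to be checked. The counts include the probe set that represents each gene, and the same counts over all genes were not made. On the representing probe sets alone, 39 of 51 members had a negative difference from siCTR, array overlap disregarded. For all measured genes it was 5923 of 13053. Of 37 members with 2 or more measured probe sets, all probe sets were lower than siCTR in 24 and higher in 5, and signs differed in 8. The 8 were IPO7, KPNA1, KPNA5, NUP133, NUP160, NUP50, NUP98 and TPR. Over all 130 measured probe sets of the 51 genes, 91 were lower than siCTR and the median was -0.23, smaller in size than over the brightest ones. Probe sets of 1 gene share the RNA pool and are not replicates.

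**Figure D4:**
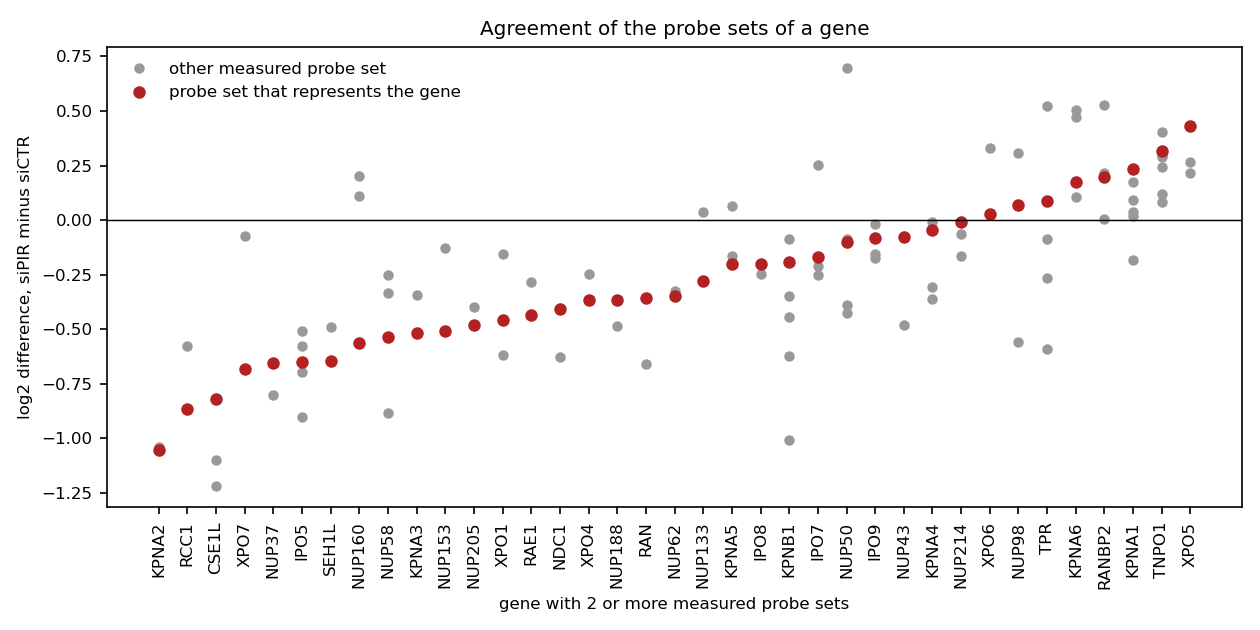
Log2 difference of siPIR minus siCTR (y axis) for every measured probe set of the 37 genes with 2 or more (x axis, ordered by the probe set that represents the gene, in red; others in grey). KPNA2, CSE1L and IPO5 lie below 0 on every probe set, while NUP160, NUP50 and TPR have probe sets on both sides.

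Between the 2 control pools the genes were nearly level. The median difference of siCTR from NO was 0.03, against 0.01 over all measured genes. In 13 of 51 genes siCTR lay below NO and in 14 above, at any size, against 24.9% and 28.1% of all measured genes. None was called at 2-fold, against 2.4% lower and 0.996% higher. NUP58 alone passed 1.5-fold (5.29% of all genes were lower by that rule and 2.81% higher). The next largest differences among bright members were -0.46 for TPR, 0.46 for KPNA5, -0.43 for NUP42, -0.36 for TNPO1 and 0.33 for KPNA6. For these, the choice of control changed the size or the direction of the siPIR difference.

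Pore and transport genes outside the symbol rule were set beside them from 2 lists. Of 17 measured genes of the pore and RAN cycle (such as SEC13, POM121C, RANGAP1 and RANBP1), none was called against both controls and the median difference was 0.03 from siCTR and -0.02 from NO. Both siPIR arrays lay below siCTR in 5 and above in 6, against 29.4% and 36.6% of all measured genes. Called against both controls were 3.2% of all measured genes (lower) and 1.47% (higher). RANBP1, which helps RANGAP1 act on RAN, was the only one 1.5-fold lower than both, by -0.62 and -0.63. SEC13, a Y complex subunit that also coats vesicles, was above both controls by 0.17 and 0.43, unlike the 7 outer ring members taken by symbol. AHCTF1 of the same list overlapped both controls, at -0.03 and 0.07. POM121C, a membrane nucleoporin, was above by 0.53 and 0.81. These genes are named because of their values.

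Of 18 measured genes of mRNA and snRNA export, none was called (3.2% of all measured genes were lower than both controls and 1.47% higher). In this list 10 lay below and 3 above siCTR, against 29.4% and 36.6% of all. The median was -0.19 from siCTR and -0.14 from NO. NXT2, partner of the export receptor NXF1, was the only one 1.5-fold lower than both (-0.59 and -0.72). Of 16 genes of the lamina and inner nuclear membrane, LMNB1, SUN2 and TMPO were called lower than both (3.2% of all measured genes). The median of the 16 was -0.11 from siCTR. Whether these lists differ from the nuclear pore genes was not tested.

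Genes of DNA replication and mitosis moved in the same direction and further. Of 30, 27 were called lower than both controls and none higher, against 3.2% and 1.47% of all measured genes. Their median was -1.59 from siCTR and -1.51 from NO. Their summed signal was 45060 and 44361 in siPIR, against 118350 and 122253 in siCTR and 111974 and 108882 in NO. The median of the nuclear pore and transport genes was -0.36 and -0.35. The part of the replication and mitosis genes in the differences above was not tested. In pooled RNA, fewer cells of a kind and less RNA per cell cannot be told apart.

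The PIR transcript checked the labels, with 392 and 382 in siPIR, against 13544 and 13180 in siCTR and 13990 and 14153 in NO, a difference of -5.09 from siCTR and -5.17 from NO. Array medians were 64.2 to 74.8 over the 6 arrays, and duplicate arrays correlated across bright genes at 0.992 to 0.994, genes not being independent. The 7 melanocyte lineage markers with a probe set of their own were all far above the limit, with summed signals of 101359 to 103249 in siPIR, 95250 to 100933 in siCTR and 97479 to 103240 in NO. Of 6 fibroblast markers 3 passed the limit (COL1A1, COL1A2 and LUM), and the summed signal of all 6 was 22951 to 23946 in siPIR, 14614 to 15806 in siCTR and 12639 to 12722 in NO. Nearly all of the fibroblast sum came from COL1A2, whose siPIR pool mean was 23055, against 14793 for siCTR and 12256 for NO. LUM went the other way, with differences of -0.44 from siCTR and -0.61 from NO. COL1A1 overlapped siCTR (-0.09) and was above NO (0.71). KRT10 alone of 6 keratinocyte markers, CD14 alone of 4 leukocyte markers, and PECAM1 and KDR of 4 endothelial markers passed the limit. The summed signal of these lists was 2693 and 2786 (keratinocyte), 339 and 363 (leukocyte) and 503 and 436 (endothelial) on the siPIR arrays. It was 3704 and 3318, 203 and 185, and 400.2 and 385 in the same order of lists in siCTR, and 3267 and 3413, 164 and 199, and 520.2 and 687 in NO. The 3′ to 5′ signal ratio of ACTB was 1.13 on each siPIR array, 1.23 and 1.26 in siCTR, and 1.23 and 1.27 in NO. The part of these in the differences was not tested.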

How the data were processed

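For 6 arrays the authors deposited 1 linear intensity per probe set, made with GCOS per the submitters' processing notes, which name no version or setting. The 2% trimmed mean of the 54675 values was 500.1 on every array, as global scaling leaves it, so a change of total RNA would not be seen. All 6 columns were matched to samples. Of the probe sets, 41097 had 1 gene, 1801 several and 11777 none listed. Symbols were checked through Entrez identifiers against RefSeq (GRCh38.p14); 99.9% matched.

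Each gene was represented by its brightest probe set (highest mean log2 value). The pseudocount of 5.4 is the 10th percentile of all values. The 2 arrays of a pool were averaged on the log2 scale. No test was run, since each group is 1 pool. Calculations used Python 3.11.15, numpy 2.4.6 and pandas 2.3.3, and the call rule was tested on simulated data. The 2 arrays of a group repeat 1 labelled target, so precision about a condition is limited by its 1 RNA pool.

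The members and lists were chosen with earlier results of these data known. Members given array values by rule were those called in any comparison, RAN, RCC1, and the largest and smallest difference from siCTR in each role group. IPO13 was added to these after its values were seen, outside that rule. Other members were named after their values were seen. Left out were 5 probe sets shared with another gene (of NUP62, IPO11 and RANBP2).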

Additional observations from a re-analysis of the deposited data

How the results depend on the processing

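No paired analysis was possible because each group is 1 RNA pool and the replicate numbers only name repeat arrays. The median difference from siCTR (-0.36) was -0.25 as the mean over probe sets and -0.44 without _x_at and _s_at probe sets (39 genes), and -0.36 to -0.31 with an array left out. From NO (-0.35) it was -0.42 without those probe sets and -0.38 to -0.32 with an array left out. Its sign held in all 15 alternatives of each.

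The count of 9 genes 1.5-fold lower than both controls was 7 to 10 in 15 alternatives, added after the data were seen. Below siCTR (35 of 51) were 27 of 51 as the mean over probe sets (25.9% of all genes). Without _x_at and _s_at probe sets it was 27 of 39 (29.5%), and without the filter 38 of 57 (24.8%). With an array left out it was 35 to 38 of 51, against 29.4% to 37.7% of all genes. Below NO (34 of 51) were 30 of 51 (32.4%), 26 of 39 (34.5%) and 35 of 57 (27.9%) in the same settings. With an array left out it was 34 to 39 of 51, against 32.6% to 40.5% of all genes. Fewer arrays in a pool make non-overlap easier to meet. The 2-fold counts are small and moved with several choices. Against siCTR (2) it was 1 with 4 times the pseudocount (3.63% of all genes), 1 among bright genes, 1 for protein-coding members alone, 4 of 57 without the filter (5.92%), 13 at 1.5-fold, and 1 to 2 with an array left out. Against NO (2) it was 1 among bright genes, 1 for protein-coding members alone, 4 of 51 as the mean over probe sets (4.48% of all genes), 5 of 39 without _x_at and _s_at probe sets (6.04%), 11 at 1.5-fold, and 2 to 3 with an array left out. Against both (1) it was 0 with 4 times the pseudocount (2.8%), 0 among bright genes, 0 for protein-coding members alone, 2 of 51 as the mean over probe sets (2.54%), 3 of 39 without _x_at and _s_at probe sets (3.43%), 9 at 1.5-fold, and 0 to 1 with an array left out, 0 being without siPIR replicate 1. Higher against both (0), and called between siCTR and NO (0), were 1 each at 1.5-fold. Of 612 values of single members, 593 kept their sign; those that did not were of IPO4, NUP214, NUP93, NUP98, TPR and XPO6. Dim genes depend on the pseudocount.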
